A study of Mus musculus with 15 samples.

Results

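Zbtb16 encodes PLZF, a transcription factor with a BTB domain and zinc fingers, and it was taken as the row of that symbol, 1 of 12798 genes in the deposited expression table. Its level was read in all 15 bulk RNA-seq libraries, which cover 6 groups of mouse bone marrow progenitors on a C57BL/6 background. EILP.KO (n = 2) held early innate lymphoid progenitors from Tcf7EGFPnull/- mice, sorted as Lin- Kit+ 2B4+ a4b7+ Tcf7+ Thy1- cells. EILP.WT (n = 3) came from the same gate in Tcf7EGFPnull/+ mice, so both groups carried an allele that the labels name as null. ILCP.WT (n = 2) held innate lymphoid cell (ILC) precursors from Tcf7EGFP/+ mice, sorted like the EILP but Thy1+ and IL-7Ra+. c-EILP.WT (n = 3) and s-EILP.WT (n = 2) came from mice with the reporters Tcf7GFP and Zbtb16GFP. They divide the EILP gate into Zbtb16high Flt3low and Zbtb16low Flt3high cells. ALP.WT (n = 3) held the all-lymphoid progenitor of Tcf7EGFP/+ mice in a gate of Flt3high IL-7Ra+ cells that are a4b7- and otherwise Lin- Kit+ 2B4+. The labels give no age and do not say whether libraries came from separate animals, so p-values measure the spread between these samples.

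PLZF binds DNA through its zinc fingers and recruits corepressors and histone deacetylases through its BTB domain. In the thymus it drives the innate-like effector programme of natural killer T (NKT) cells, and in bone marrow it marks precursors that give rise to most ILC subsets. TCF-1, the product of Tcf7, is a transcription factor needed early in the same lineage. Zbtb16 lies on mouse chromosome 9 at 48651797 to 48836225 in the RefSeq table for GRCm38.p6, the assembly behind the build mm10 named by the submitters. GENCODE M21 places it on the minus strand, with 2 transcripts of 7 exons each and 5283 exonic bases in all.

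The values are on the log2 scale of the table, which is close to log2 CPM after quantile normalization. The lowest value of a library, from -4.83 to -4.41, was held by 747 genes at the fewest and by 2575 genes in EILP.WT replicate 3. No counts were used, so depth and a detection limit are unknown, and a gene at that value is called listed at the lowest value.

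The gate and reporter genes were checked first. Tcf7 was 6.97 and 7.65 in EILP.KO, against 9.89, 10.81 and 11.14 in EILP.WT, so the null group held less but not none of the transcript. Flt3, the receptor tyrosine kinase that separates the fractions, was 6.69, 8.26 and 6.98 in c-EILP.WT and 9.47 and 8.78 in s-EILP.WT, without overlap. Thy1 was 4.99 and 4.85 in ILCP.WT and at most 2.46 in EILP.WT. Cd244, which encodes 2B4, was 3.51 and 6.22 in ILCP.WT and 6.15 or more in every other library, so ILCP.WT replicate 1 was low for a gene of its gate. EILP.WT replicate 3 stood apart from the other libraries of its group in markers of natural killer (NK) cells. Its Klrb1c, Ncr1, Eomes and Gzma were 6.62, 4.44, 6.48 and 5.12, while Klrb1c and Ncr1 were at the lowest value in EILP.WT replicates 1 and 2. That library also had the highest Zbtb16 of its group, so results on EILP.WT are given without it too, and its part in the Zbtb16 level was not tested.

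Zbtb16 was near the lowest value in ALP.WT, intermediate in s-EILP.WT and EILP.KO, and highest in EILP.WT, c-EILP.WT and ILCP.WT. In ALP.WT it was -4.60, -4.83 and -4.53. Replicates 1 and 2 were at the lowest value of their library and replicate 3 was 0.30 above it. In s-EILP.WT it was 4.28 and 4.60. In c-EILP.WT it was 6.96, 6.80 and 6.71, within a range of 0.25. In the undivided EILP.WT gate it was 6.30, 6.73 and 7.24. The 2 groups overlap. In ILCP.WT it was 6.62 and 7.32. EILP.KO had 4.56 and 5.61. As linear values, 2 to the power of the deposited value and so roughly CPM, these are 23.5 and 49.0 in EILP.KO and 78.7, 106 and 151 in EILP.WT. ILCP.WT had 98.6 and 160, c-EILP.WT 105 to 125, and s-EILP.WT 19.4 and 24.3.

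**Figure D1:**
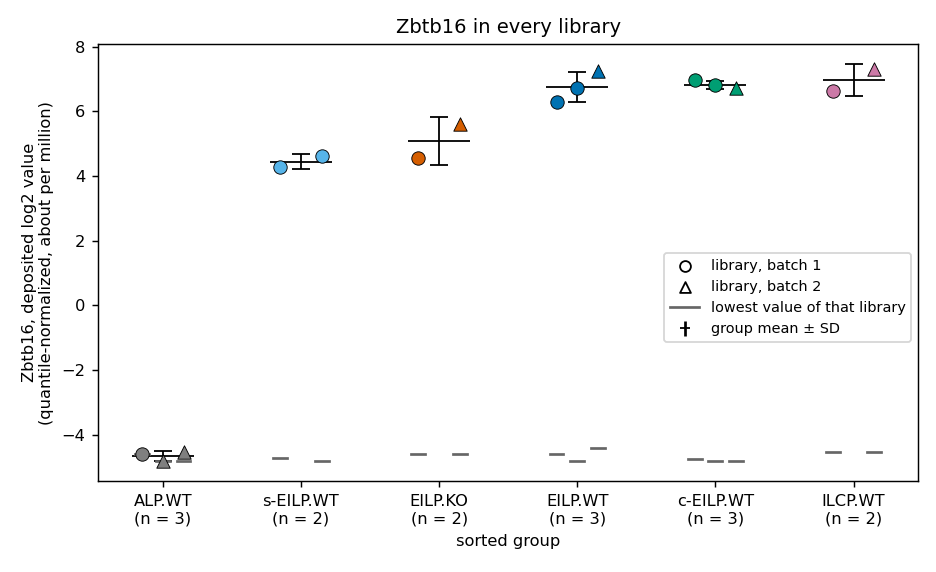
Deposited log2 value of Zbtb16 (y axis) in each of the 15 libraries by sorted group (x axis), with circles for batch 1, triangles for batch 2, group mean ± SD, and a grey dash at each library's lowest value. ALP.WT lies at or near the lowest value, s-EILP.WT and EILP.KO lie between 4.28 and 5.61, and EILP.WT, c-EILP.WT and ILCP.WT lie between 6.30 and 7.32.

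Ordered by mean, ILCP.WT came first at 6.97 ± 0.49 (SD, n = 2), then c-EILP.WT at 6.83 ± 0.12 (n = 3) and EILP.WT at 6.76 ± 0.47 (n = 3). EILP.KO followed at 5.09 ± 0.75 (n = 2), s-EILP.WT at 4.44 ± 0.23 (n = 2) and ALP.WT at -4.65 ± 0.16 (n = 3). Neighbours in this order overlapped except EILP.KO below EILP.WT and ALP.WT below s-EILP.WT. In bulk samples, fewer cells with the transcript and less RNA per cell cannot be told apart.

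Zbtb16 was lower in both EILP.KO libraries than in every EILP.WT library, but the difference did not pass the threshold over all genes. EILP.KO had 4.56 and 5.61, against 6.30, 6.73 and 7.24 in EILP.WT. The model of all libraries, with the group and the labelled batch as terms, gave -1.74 (SE 0.57, 95% confidence interval -2.98 to -0.49, 3.33-fold lower). The p was 0.0102 before and 0.451 after Benjamini-Hochberg adjustment over the 12572 genes tested by limma, and 283 genes had a smaller one. Of all tested genes, 0.103% passed in this comparison, 8.7% had an unadjusted p under 0.05, and 9.62% were lower without overlap. Within batch 1 the difference was -1.96, and within batch 2, with 1 library each, it was -1.63. Leaving out EILP.KO replicate 1 gave -1.32 and leaving out EILP.KO replicate 2 gave -2.11. Without EILP.WT replicate 3 the difference was -1.58 (adjusted p = 0.710).

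The Tcf7-null progenitors held far more Zbtb16 than ALP.WT. Zbtb16 rose in EILP.KO, at 5.09 ± 0.75 against -4.65 ± 0.16 in ALP.WT (difference 9.80, SE 0.57, limma adjusted p = 6.07e-06). It had the smallest p of all genes in that comparison, in which 1.33% of genes passed. The groups differ in both gate and genotype, which cannot be told apart. ALP.WT lies at or near the lowest value, so differences from it are given on the log2 scale and not as folds. With values below 0 set to 0, this one was 5.16.

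The fractions c-EILP.WT and s-EILP.WT were sorted on the Zbtb16 reporter, so their levels were set in part by the gate, and every difference that involves them is a description with no test. EILP.KO had 4.56 and 5.61, against 4.28 and 4.60 in s-EILP.WT, and the ranges overlap. The difference was 0.45 (95% confidence interval -0.96 to 1.86). Of all genes, 0.0159% passed by limma between these groups. Against c-EILP.WT, EILP.KO was lower in both libraries without overlap (difference -1.81, SE 0.57), where 0.294% of genes passed and 14% were lower without overlap. Within batches 1 and 2 the difference was -2.33 and -1.10. The fractions also come from another reporter strain. Gate, strain and genotype cannot be told apart in these comparisons.

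Markers of other lineages also differed between these groups. The 6 myeloid markers, among them Mpo and Elane, summed to 4260 and 5440 linear units in EILP.KO, against 489 to 3970 in EILP.WT, without overlap. They summed to 1220 to 2520 in c-EILP.WT and 3210 and 3420 in s-EILP.WT. The 5 dendritic cell markers, among them Irf8, summed to 1330 and 2160 in EILP.KO and 689 to 1730 in EILP.WT, and to 217 to 869 in c-EILP.WT and 1260 to 1850 in s-EILP.WT. Among the EILP.WT libraries, Mpo was 11.70, 9.55 and 8.36 and Elane 4.63, 5.78 and 2.94 where Zbtb16 was 6.30, 6.73 and 7.24. In EILP.KO, Mpo was 11.70 and 11.87 and Elane 7.45 and 9.65 where Zbtb16 was 4.56 and 5.61. The order of Mpo against Zbtb16 thus differed between the 2 groups. The 5 measured mast cell and basophil markers summed to 343 and 510 in EILP.KO and 576 to 971 in EILP.WT, without overlap, and to 12.1 to 51.7 in ALP.WT. Cpa3 was the highest of them in EILP.KO, at 8.90 and 7.95, and in EILP.WT, at 9.07, 9.55 and 9.25. The others overlapped between these groups, with Mcpt8 at 4.91 and 6.35 in EILP.KO and 5.21, 5.73 and 4.64 in EILP.WT. The part of these lineages in the Zbtb16 differences was not tested.

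The 8 markers of T and NKT cells found in the table summed to 62.1 and 105 in EILP.KO and 65.9 to 113 in EILP.WT. ILCP.WT had 103 and 128, c-EILP.WT 35.4 to 55.9, s-EILP.WT 49.4 and 52.3, and ALP.WT 78.2 to 105. The CD3 chain gene Cd3e had the lowest value of its library in both EILP.KO samples, in EILP.WT replicate 1, in c-EILP.WT replicate 3 and in all 3 ALP.WT samples. EILP.WT replicate 1 and c-EILP.WT replicate 3 held Zbtb16 at 6.30 and 6.71, with Cd6, another T cell gene, at 5.62 and 3.34. Cd3e reached 4.0 in EILP.WT replicate 3 and 4.16 and 3.67 in ILCP.WT.

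Zbtb16 rose in EILP.WT and in ILCP.WT against ALP.WT. EILP.WT had 6.76 ± 0.47 and ALP.WT -4.65 ± 0.16, a difference of 11.54 (SE 0.52, limma adjusted p = 2.84e-07), the second smallest p of 12572 genes, of which 3.21% passed. Without EILP.WT replicate 3 it was 11.37 (adjusted p = 2.075e-05). ILCP.WT rose by 11.69 (SE 0.57, adjusted p = 2.33e-07) over ALP.WT, where 13.4% of genes passed. Of the fractions sorted on the reporter, the low one also lay far above the all-lymphoid progenitor. s-EILP.WT had 4.28 and 4.60, against -4.60, -4.83 and -4.53 in ALP.WT (difference 9.36, SE 0.62), where 0.803% of genes passed. c-EILP.WT minus ALP.WT was 11.61 (SE 0.52), where 4% of genes passed. These comparisons share the ALP.WT libraries. ALP.WT came from Tcf7EGFP/+ mice and EILP.WT from Tcf7EGFPnull/+ mice. Stage and genotype cannot be told apart between them, here or in the gene lists below. A fit of the 2 groups alone ended the call of EILP.KO over ALP.WT (adjusted p = 0.153), and batch 2 alone ended those of EILP.KO, EILP.WT and ILCP.WT.

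No further change of Zbtb16 was detected between the early gate and the ILC precursor. ILCP.WT had 6.62 and 7.32, against 6.30, 6.73 and 7.24 in EILP.WT, and the ranges overlap. The difference was 0.15 (SE 0.57, 95% confidence interval -1.09 to 1.39, limma adjusted p = 0.921), and without EILP.WT replicate 3 it was 0.31 (adjusted p = 0.851). In this comparison 6.95% of all genes passed. EILP.WT came from Tcf7EGFPnull/+ mice and ILCP.WT from Tcf7EGFP/+ mice. Stage and genotype cannot be told apart between them, here or in the gene lists below. Against c-EILP.WT, at 6.96, 6.80 and 6.71, ILCP.WT differed by 0.08 (95% confidence interval -1.16 to 1.32), where 7.41% of genes passed. That difference was -0.26 within batch 1 and 0.61 within batch 2.

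ILCP.WT stood above s-EILP.WT in both libraries, at 6.62 and 7.32 in ILCP.WT against 4.28 and 4.60 in s-EILP.WT, a difference of 2.33 (SE 0.65), where the low level of s-EILP.WT was chosen by the gate. In that comparison 4.93% of genes passed and 27% were higher without overlap. EILP.KO stood below ILCP.WT, at 4.56 and 5.61 in EILP.KO against 6.62 and 7.32 in ILCP.WT (difference -1.89, SE 0.62, adjusted p = 0.0831). There 8.57% of genes passed and 26.9% were lower without overlap. Gate and genotype both differ between EILP.KO and ILCP.WT.

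**Figure D2:**
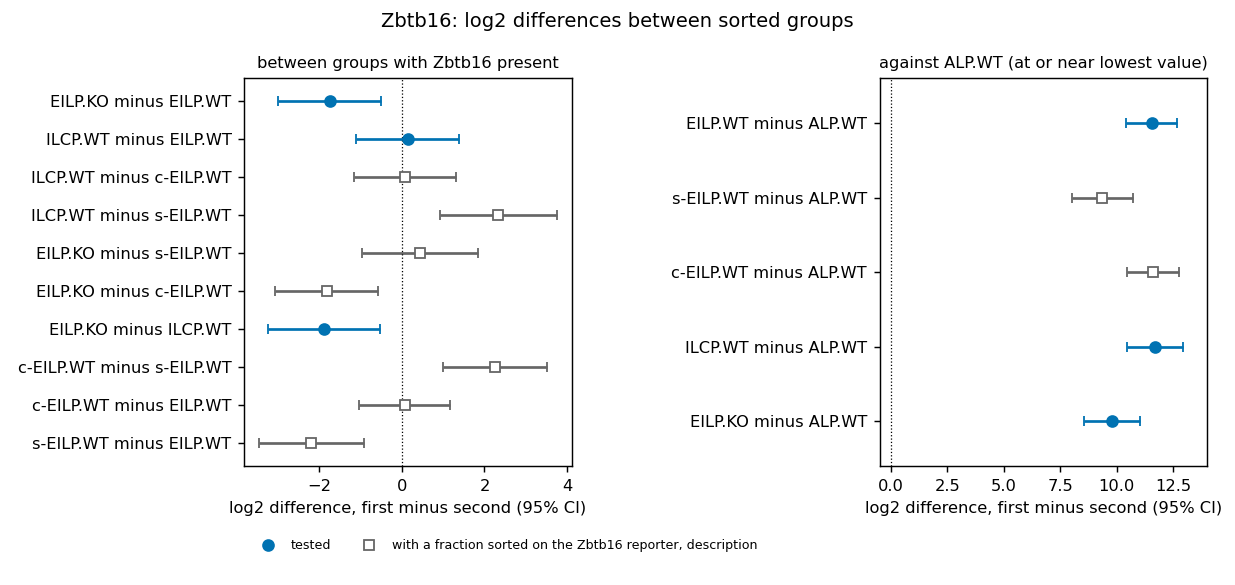
Log2 difference of Zbtb16, first group minus second (x axis), with its 95% confidence interval, not adjusted for the number of genes, from the limma fit of all libraries, for each pair of groups (y axis). Filled circles were tested, and open squares are descriptions that involve a fraction sorted on the Zbtb16 reporter. Intervals of EILP.KO against EILP.WT, c-EILP.WT and ILCP.WT lie below 0, those of ILCP.WT against EILP.WT and c-EILP.WT span 0, and those against ALP.WT lie above 8.

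Between the reporter fractions the difference is a check of the sort. c-EILP.WT exceeded s-EILP.WT by 2.25 (SE 0.58), which is 4.77-fold. The undivided EILP.WT gate, at 6.30 to 7.24, overlapped c-EILP.WT and lay above both s-EILP.WT libraries. c-EILP.WT minus EILP.WT was 0.07 (SE 0.51), and s-EILP.WT minus EILP.WT was -2.18 (SE 0.58). Reporter strains differ between the fractions and the undivided gate.

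Over all 15 libraries, the genes whose level followed Zbtb16 most closely included the ILC regulators Tox, Tcf7 and Id2. Likeness was Pearson's r with Zbtb16 over the 15 libraries, among 6161 genes above the median level. Of these, 17 genes (0.276%) had an r above 0.9, and the median was -0.037. The libraries fall into ALP.WT and the rest, so r was also taken over the 12 libraries without ALP.WT. These include c-EILP.WT and s-EILP.WT, which were sorted on the Zbtb16 reporter and Flt3. Part of the spread of Zbtb16 behind either r was therefore set by the gate. By r over the 12 libraries, Tox ranked 3 of the 6161 genes, Tcf7 211 and Id2 316. Tox, an HMG-box transcription factor needed for ILC and T cell development, was first with r = 0.994, and r was 0.898 over the 12 libraries. It was 7.42 and 8.35 in EILP.KO, 7.86, 8.15 and 8.66 in EILP.WT, and 3.34, 3.71 and 3.47 in ALP.WT. In EILP.KO the replicate with more Zbtb16 also had more Tox and Tcf7. The rest of the 8 genes with the highest r were lower in that replicate than in the other.

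Tmsb4x, which encodes the actin-binding thymosin beta 4, followed with r = 0.974, and r was 0.901 over the 12 libraries. It was 10.89 and 10.84 in EILP.KO and 11.34, 11.34 and 11.58 in EILP.WT, a difference of -0.56 (SE 0.12) that did not pass (limma adjusted p = 0.191). Bcl2, a survival gene, had r = 0.965, or 0.703 over the 12. Tcf7 had r = 0.956, or 0.602 over the 12. The EILP gate takes Tcf7+ cells, so the r of Tcf7 over all libraries was set in part by the sort. Tcf7 is also the gene made null in EILP.KO, whose libraries enter both values of r, so genotype set part of either. Id2, whose product binds E proteins and blocks them, had r = 0.945, or 0.558 over the 12.

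For the remaining 3 genes r was far lower without ALP.WT. Tagln2, which encodes an actin-binding protein, had r = 0.948 over all libraries and 0.169 over the 12. Pik3cd, which encodes a catalytic subunit of phosphoinositide 3-kinase, had 0.932 and 0.187. Itgb7, the integrin chain on which a4b7+ cells are gated, had 0.924 and -0.100. EILP.WT minus ALP.WT ran from 0.94 for Pik3cd to 8.34 for Tcf7 among the 8, a description with no test because the genes were picked for following Zbtb16.

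The most opposite genes were Xrcc6, a DNA end-joining gene, with r = -0.966, Csrp1 with -0.939, Cnn3 with -0.932 and Smim14 with -0.911. Xrcc6 was 7.25, 7.06 and 6.67 in EILP.WT, and 8.96, 8.78 and 8.75 in ALP.WT (difference -1.89, SE 0.20). Over the 12 libraries r was -0.688 for Xrcc6, -0.429 for Csrp1, -0.697 for Cnn3 and -0.704 for Smim14. In all, 7 genes had an r under -0.9.

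**Figure D3:**
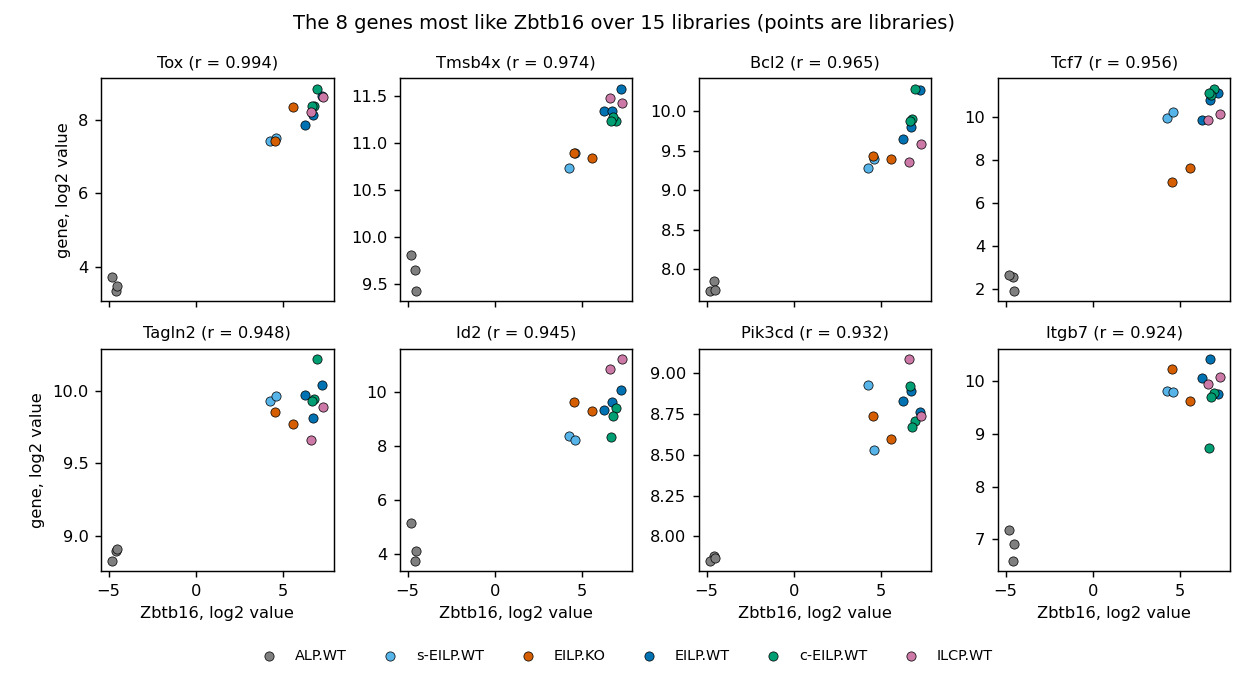
Deposited log2 value of each of the 8 genes most like Zbtb16 (y axes, different ranges) against Zbtb16 (x axis) in the 15 libraries, coloured by group, with Pearson's r over all libraries. ALP.WT forms a separate cluster at the lower left, and within the other 12 libraries Tox and Tmsb4x still rise with Zbtb16 (r = 0.898 and 0.901) while Tagln2 and Itgb7 do not (0.169 and -0.100). The 12 include the fractions sorted on the Zbtb16 reporter.

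Regulators of the ILC lineage were compared with ALP.WT in both EILP.WT and EILP.KO, so these comparisons share the ALP.WT libraries. Of 16 listed regulators other than Zbtb16, 9 rose, 0 fell and 7 did not pass in EILP.WT against ALP.WT, with a median of 5.66, or 5.24 without 4 genes that one group had at the lowest value throughout, against -0.01 for all genes. The risers included Gata3, Tox2 and Bcl11b, where 1.71% of all genes rose and 1.5% fell. In EILP.KO against ALP.WT, Tcf7, Id2, Nfil3, Tox, Runx3 and Lef1 rose, 0 fell and 10 did not pass, where 0.605% of all genes rose and 0.724% fell. Tcf7 also rose in EILP.WT. The EILP gate takes Tcf7+ cells, so its rise in both comparisons was set in part by the sort. Id2 was 9.47 ± 0.25 in EILP.KO and 4.34 ± 0.73 in ALP.WT (difference 5.15, SE 0.40, limma adjusted p = 5.33e-05). Nfil3, a basic leucine zipper factor needed at the earliest ILC stage, was 9.03 ± 0.32 in EILP.KO and 5.46 ± 0.72 in ALP.WT (difference 3.52, SE 0.58, adjusted p = 0.0101). Gata3, the zinc finger factor of ILC2 and T helper 2 cells, was 5.19 ± 0.42 in EILP.KO against 1.92 ± 2.31 in ALP.WT and missed the threshold (adjusted p = 0.0501).

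In EILP.KO against EILP.WT, Tcf7, the gene made null, was the 1 regulator of 16 that fell. Of the other 15, 0 passed by limma, and 6 of the 16 had an unadjusted p under 0.05, which 8.7% of all genes had. Over all genes 0.0477% rose and 0.0557% fell. The median was -2.06, or -1.09 without 2 genes that one group had at the lowest value throughout, against 0.04 for all genes. Gata3 was 5.19 ± 0.42 in EILP.KO and 7.41 ± 0.96 in EILP.WT (difference -2.43, adjusted p = 0.429). Id2, at 9.47 ± 0.25 in EILP.KO against 9.69 ± 0.36 in EILP.WT, and Nfil3, at 9.03 ± 0.32 in EILP.KO against 8.54 ± 0.79 in EILP.WT, differed by less than their spread. Bcl11b, a T cell and ILC2 factor, had the lowest value of its library in both EILP.KO samples and was 2.47 ± 1.97 in EILP.WT.

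In ILCP.WT against EILP.WT, where no change of Zbtb16 was detected, 2 of the 16 regulators fell although 12 of the 16 had a positive difference (median 1.61, against -0.06 for all genes). Over all genes 2.61% rose and 4.34% fell. Nfil3 fell to 5.70 ± 0.86 in ILCP.WT, against 8.54 ± 0.79 in EILP.WT (difference -2.79, SE 0.58, limma adjusted p = 0.0135). Runx3, a Runt family factor, fell to 6.64 ± 0.30 in ILCP.WT, against 7.88 ± 0.15 in EILP.WT (adjusted p = 0.00632). Of the 16, 0 rose by limma, with 9 at an unadjusted p under 0.05 in either direction. Id2 was 11.03 ± 0.28 in ILCP.WT and 9.69 ± 0.36 in EILP.WT (adjusted p = 0.0679).

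Genes of the innate-like T cell programme, in which PLZF acts in NKT cells, included 6 that rose in ILCP.WT against EILP.WT and 2 that rose in EILP.WT against ALP.WT, and whether these comparisons differ was not tested. Of 17 measured out of 20 listed, 2 rose and 1 fell in EILP.WT against ALP.WT, with a median of 0.45, where 1.71% of all genes rose and 1.5% fell. The cytokine receptor genes Il12rb2 and Il2rb rose, and Icos, a costimulatory receptor gene, fell to the lowest value in every EILP.WT library. In ILCP.WT against EILP.WT, 6 rose and 1 fell (median 3.54, or 1.96 without 3 genes that one group had at the lowest value throughout, against -0.06 for all genes). Those 3 genes, Il23r, Icos and Ccr6, were at the lowest value in every EILP.WT library, so their differences depend on that value. The 6 that rose were Il18r1, Il12rb1, Il23r, Icos, Ccr6 and Ccr7, where 2.61% of all genes rose and 4.34% fell. The summed ILC2 markers and the NK cell gene Ncr1 were higher in the same libraries, while the summed NK markers overlapped. The 2 measured ILC2 markers, Il1rl1 and Il9r, summed to 262 and 286 linear units in ILCP.WT, against 0.0705 to 46.7 in EILP.WT. The NK cell receptor gene Ncr1 was 6.29 and 7.03 in ILCP.WT and reached 4.44 in EILP.WT replicate 3 alone of its group. The 6 measured NK markers summed to 552 and 602 in ILCP.WT and 211 to 774 in EILP.WT, with Prf1 and Gzma at the lowest value in both ILCP.WT libraries. The part of these cells in the list was not tested.

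Icos was 8.94 ± 0.27 in ILCP.WT and listed at the lowest value in all EILP.WT libraries (limma adjusted p = 0.000208). Il18r1, a chain of the interleukin 18 receptor, was 8.04 ± 0.12 in ILCP.WT and 4.66 ± 1.32 in EILP.WT (difference 3.54, SE 0.78, adjusted p = 0.018). Cxcr6, a chemokine receptor gene of ILC precursors and NKT cells, was 10.10 ± 0.33 in ILCP.WT and -1.47 ± 5.61 in EILP.WT (adjusted p = 0.0553). In EILP.KO against EILP.WT, 0 of the 17 passed by limma, 3 had an unadjusted p under 0.05, against 8.7% of all genes, and the median was -0.10.

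**Figure D4:**
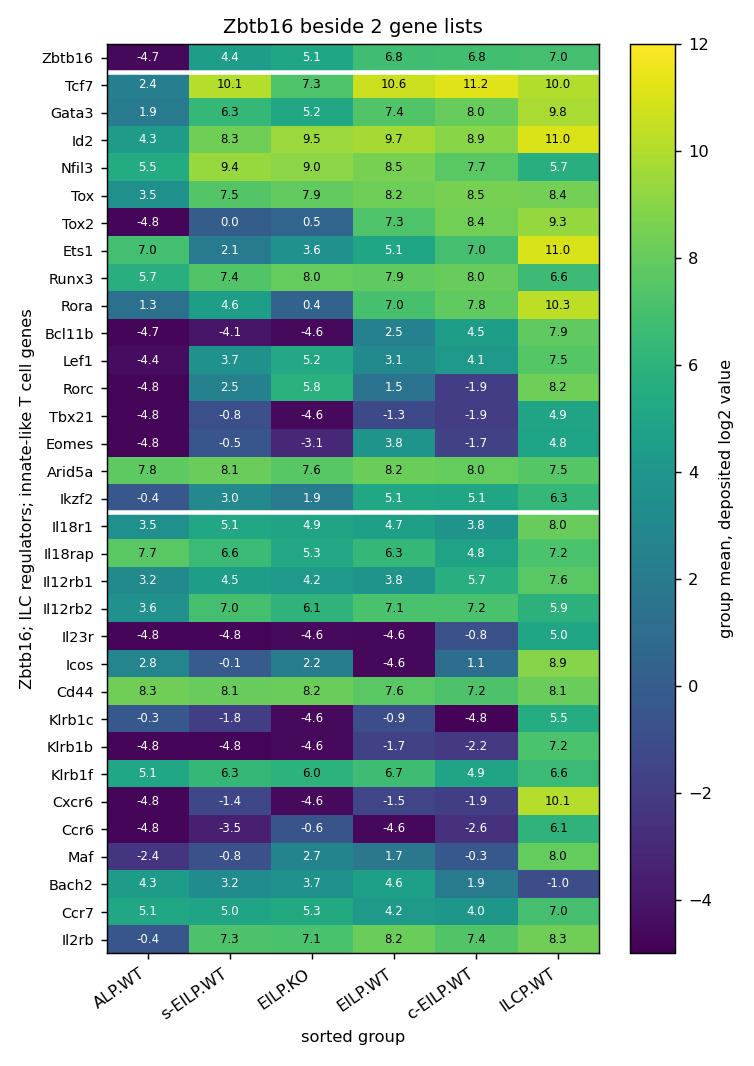
Group means of the deposited log2 value (colour and printed number, scale from -5 to 12) for Zbtb16, the 16 ILC regulators and 16 of the 17 measured innate-like T cell genes (rows) in the 6 groups (columns). Zbtb16 is at 4.4 or more in every group but ALP.WT, while Icos, Cxcr6 and Il18r1 reach 8.0 or more in ILCP.WT alone among the 6 groups.

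Genes that act upstream of Zbtb16 in NKT precursors were followed as a list. Of 11 listed, 8 were tested, and 0 passed in EILP.WT against ALP.WT or in EILP.KO against EILP.WT by limma (1 and 0 at an unadjusted p under 0.05, which 16.5% and 8.7% of all genes had). Egr2, a zinc finger factor that switches on Zbtb16 in NKT precursors, was filtered out, and every EILP.KO and EILP.WT library had it at its lowest value. In ILCP.WT against EILP.WT, Fyn rose and Runx1 and Myb fell, where 2.61% of all genes rose and 4.34% fell. In ILCP.WT against ALP.WT, 13.4% of all genes passed. There Sh2d1a, which encodes the adaptor SAP, rose (difference 8.46, SE 2.48, limma adjusted p = 0.0412) and Myb fell (difference -2.79, SE 0.20, adjusted p = 6.4e-06). Sh2d1a was at the lowest value in all 3 ALP.WT libraries, so its difference depends on that value. Myb was 6.20 ± 0.00 in ILCP.WT and 8.39 ± 0.43 in EILP.WT (difference -2.17, SE 0.20, limma adjusted p = 7.29e-05). Fyn, a Src family kinase gene, was 7.90 ± 0.37 in ILCP.WT and 6.22 ± 0.49 in EILP.WT (difference 1.68, SE 0.40, adjusted p = 0.0258).

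Partners of PLZF did not pass in the 3 comparisons followed here. Of 14 genes, mostly corepressors and histone deacetylases with Cul3, Bmi1 and Rara, 0 passed in EILP.KO against EILP.WT, in EILP.WT against ALP.WT or in ILCP.WT against EILP.WT by limma, with 2, 1 and 5 at an unadjusted p under 0.05. Over all genes 8.7%, 16.5% and 22.3% had such a p. Their medians were -0.17, 0.13 and 0.34, against 0.04, -0.01 and -0.06 for all genes. Ncor1, a corepressor, was 7.66 ± 0.19 in EILP.KO, 7.87 ± 0.41 in EILP.WT and 7.80 ± 0.06 in ALP.WT. Cul3, a scaffold of a ubiquitin ligase that binds PLZF, was 8.42 ± 0.11 in ILCP.WT and 7.89 ± 0.27 in ALP.WT (difference 0.57, SE 0.17, adjusted p = 0.0409), where 5.56% of all genes rose. Rara, the retinoic acid receptor gene fused to PLZF in a human leukaemia, was 6.70 ± 0.01 in ILCP.WT and 4.49 ± 0.47 in ALP.WT (difference 2.22, SE 0.47, adjusted p = 0.00937).

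Among relatives of Zbtb16, 43 other genes named Zbtb or known as BTB zinc finger factors were tested. Zbtb8os shares the name only. In EILP.WT against ALP.WT and in EILP.KO against EILP.WT, 0 passed by limma, with 5 at an unadjusted p under 0.05 in each, which 16.5% and 8.7% of all genes had. The medians were 0.21 and -0.27, or -0.04 for EILP.KO without 5 genes that one group had at the lowest value throughout. Zbtb18, a repressor gene, fell to 0.11 ± 0.32 in ILCP.WT, against 4.69 ± 0.96 in EILP.WT (difference -4.58, SE 0.68, adjusted p = 0.00182), and was the 1 that passed there, where 6.95% of all genes passed. Zbtb7b, which encodes the CD4 lineage factor ThPOK, was 3.72 ± 0.67 in ILCP.WT and -2.05 ± 2.22 in EILP.WT (adjusted p = 0.104). Patz1 and Zbtb1, a gene needed for lymphoid development, had group means between 6.77 and 7.81.

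The measured genes next to Zbtb16 on chromosome 9 did not pass. Of the 6 nearest by start in the RefSeq table, 3 before and 3 after, Rbm7 and Gm5617 were measured, and the others were not analysed here. Rbm7 was 7.19 ± 0.03 in EILP.KO, 7.32 ± 0.55 in EILP.WT and 7.14 ± 0.27 in ALP.WT. Neither passed in the comparisons of EILP.KO with EILP.WT, EILP.WT with ALP.WT or ILCP.WT with EILP.WT (lowest adjusted p = 0.680). The predicted gene Gm32280 lies within the span of Zbtb16, and whether reads were assigned by strand is not given in the sources used here.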

How the data were processed

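RNA of sorted cells was extracted and made into libraries with SMARTer Ultra Low Input v3 and Nextera XT kits, per the labels' protocols. Tools named, per the submitters' processing notes, are STAR 2.5.2b, RSEM 1.2.23, bcl2fastq 2.17 and limma, with build mm10. The gene annotation, the offset and any batch removal are not given in the sources used here. The deposited table holds log2 values, which judged by the values are close to log2 CPM and quantile-normalized across libraries. Another 24 empty columns of the table match no sample and were left out.

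Groups and batches (9 and 6 libraries) came from the labels. A gene entered the tests if 2 or more libraries had it at a log2 value of 0 or higher, which 12572 genes met. One limma fit (3.58.1, R 4.3.3) of all 15 libraries had group and batch as terms and an intensity trend. P-values were adjusted by Benjamini-Hochberg over all genes of a comparison, with a threshold of 0.05. The fit was tested on simulated data. Group values are means ± SD. Of 15 pairs of groups, 12 were fitted with a test for Zbtb16, but p-values are given for the 6 without a fraction sorted on the Zbtb16 reporter.

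The gene and the lists (ILC regulators, Zbtb family, PLZF partners, genes upstream of Zbtb16 in NKT precursors, innate-like T cell genes, neighbours and cell type markers) were chosen with earlier results of these data known. Named genes are Zbtb16, list members, and by rule the 8 highest and 4 lowest Pearson r. Predicted, immunoglobulin and T cell receptor genes were left out of that ranking. A single list member that counts towards the totals is not reported here by name or drawn.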

Additional observations from a re-analysis of the deposited data

How the results depend on the processing

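Alternatives were fitted for 12 comparisons of Zbtb16, 6 of them with a fraction sorted on its reporter and so given as descriptions. For the other 6, direction and side of the threshold were followed. Over ALP.WT, EILP.WT kept both in 16 of 17 alternatives, ILCP.WT in 16 of 17 and EILP.KO in 15 of 17. ILCP.WT against EILP.WT and EILP.KO against ILCP.WT kept both in 14 of 16 each. EILP.KO against EILP.WT kept both in all 16 alternatives, with adjusted p between 0.176 and 0.741. In batch 2 alone, every group but ALP.WT has a lone sample assumed to vary like ALP.WT. Differences from ALP.WT were 11.92 for EILP.WT, 11.39 for c-EILP.WT, 12 for ILCP.WT and 10.29 for EILP.KO there. The 2 groups alone ended the call of EILP.KO over ALP.WT (9.80), and s-EILP.WT minus ALP.WT was 9.04 in such a fit, a description. Values below 0 set to 0 lowered the differences from ALP.WT by construction, to between 4.72 and 7.04. ILCP.WT minus s-EILP.WT, a description, was 2.53 with no batch term, 2.32 with values below 0 set to 0 and 2.33 without the trend. EILP.KO against ILCP.WT passed with values below 0 set to 0 and without the trend (-1.89 each). ILCP.WT against c-EILP.WT turned sign under cyclic loess (-0.0059), in batch 1 (-0.26), without c-EILP.WT replicate 3 (-0.19) and without ILCP.WT replicate 2 (-0.089). ILCP.WT against EILP.WT did so without EILP.WT replicate 1 (-0.012) and ILCP.WT replicate 2 (-0.018). The cause was not tested.

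With each library left out in turn, values ran from -2.11 to -1.32 for EILP.KO against EILP.WT, -2.18 to -1.39 against c-EILP.WT, -2.28 to -1.49 against ILCP.WT and 0.12 to 0.91 against s-EILP.WT. For ILCP.WT they ran from -0.018 to 0.34 against EILP.WT, -0.19 to 0.27 against c-EILP.WT and 2.17 to 2.54 against s-EILP.WT. Over ALP.WT they ran from 9.38 to 10.17 for EILP.KO, 11.37 to 11.79 for EILP.WT, 11.46 to 11.91 for c-EILP.WT, 9.19 to 9.65 for s-EILP.WT and 11.50 to 11.92 for ILCP.WT.

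Of the 98 list members tested, 1 passed (Tcf7, the gene made null) in EILP.KO against EILP.WT, 12 in EILP.WT against ALP.WT and 13 in ILCP.WT against EILP.WT. Over all genes 0.103%, 3.21% and 6.95% passed. Batch 2 alone holds a lone sample in every group but ALP.WT, so its counts are not given. Of all 12572 genes, 0, 60 and 0 passed by limma with the 2 groups alone, where these counts were 0, 6 and 0. The first was 2 without the trend and 2 without EILP.KO replicate 2. With single libraries left out they ran from 1 to 2, 9 to 13 and 9 to 14. Of the 8 genes most like Zbtb16, 1 stayed among the top 8 by Spearman's rho, 2 over the 6 group means, 6 without EILP.WT replicate 3, and 2 over the 12 libraries other than ALP.WT, an alternative chosen after seeing the data.

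Libraries with the same replicate number did not deviate together (r between -0.0726 and 0.0486 over 33 pairs). With the replicate block in place of batch, EILP.KO against EILP.WT was -1.59 and EILP.WT against ALP.WT kept its call, and no call on Zbtb16 changed.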
